A study of Mus musculus with 10 samples.

Results

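The genes described here are 10 epithelial and mesothelial surface and cytoskeletal genes of the mouse: the keratins Krt7, Krt8, Krt18 and Krt19, the adhesion genes Epcam and Cdh1, the claudins Cldn3 and Cldn4, and the mesothelium-linked genes Msln and Upk3b. They were chosen by name, and their entries were read from a marker table of 9 cell clusters of ascites, which holds 1991 entries for 1596 distinct genes, and from copy ratio tables of 8 tumors, in which 21243 genes have at least 1 bin. Of the 10 genes 8 were listed as markers and 9 had bins. Krt18 has no bin under its name.

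Keratins form the intermediate filaments of epithelial cells from pairs of a type II chain (Krt7, Krt8) and a type I chain (Krt18, Krt19), and simple epithelia, including that of the fallopian tube, are known for these chains. Cdh1 encodes E-cadherin, which joins neighbouring cells at adherens junctions. Cldn3 and Cldn4 encode tight junction proteins, and Epcam encodes a cell adhesion protein of epithelial surfaces. Msln encodes mesothelin and Upk3b a uroplakin, and both are used as markers of the mesothelium, which lines the body cavity in which ascites collects and which itself makes simple keratins.

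All groups share 1 treatment: in C57BL/6 mice the epithelium of the fallopian tube was electroporated with plasmids that carry Cas9, Cre and a guide RNA. DNA came from 8 fixed and embedded ovarian tumors, of which 5 were labelled as Lkb1 deletion and 3 as Lkb1 intact. By a second label 4 tumors expressed PAX8, a transcription factor of the fallopian tube epithelium, and 4 did not. PAX8-positive were Lkb1-deleted tumors 1 and 4 and Lkb1-intact tumors 2 and 3, and PAX8-negative were Lkb1-deleted tumors 2, 3 and 5 and Lkb1-intact tumor 1. The single-cell library was made from the ascites of 1 mouse after red blood cells were removed. It is labelled Lkb1 deletion and carries the number of Lkb1-deleted tumor 1. The sources used here do not give the age of the mice, the targets of the guides, the cells in which Cre acted or the share of tumor cells in each tumor.

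Mean depth over bins ran from 1.25 to 2.24 between tumors. From the differences between neighbouring bins, the noise of a single bin had an estimated SD of 0.16 to 0.26 (log2). A typical bin therefore carries an error close to the 0.2 used below as the mark of a changed value. The estimate is based on a median over all bins of a tumor. The median bin length was 18627 bp, and the error of shorter bins was not estimated. The ascites table comes from 1 library without replicates, and its p-values over cells are not printed here. Whether the tumors come from separate mice is given only by their numbers, so p-values measure the spread between these tumors.

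Upstream sequences are shown for the keratins of chromosome 15 and for Epcam, which were all listed as markers of the ascites cluster named tumor cells, and for the neighbours Cldn3 and Cldn4, of which only Cldn3 was listed. Each run is the 250 bases before the transcription start in the RefSeq promoter table of build GRCm38.p6, written 5′ to 3′ on the gene's strand. Promoters of 7 of the 10 genes matched this table. Capitals mark matches on either strand to CACCTG, the E-box to which the repressors Snail and Zeb are known to bind, to GGGCGG, a binding sequence of Sp1, and to TGACTCA, a binding sequence of AP-1.
Krt7: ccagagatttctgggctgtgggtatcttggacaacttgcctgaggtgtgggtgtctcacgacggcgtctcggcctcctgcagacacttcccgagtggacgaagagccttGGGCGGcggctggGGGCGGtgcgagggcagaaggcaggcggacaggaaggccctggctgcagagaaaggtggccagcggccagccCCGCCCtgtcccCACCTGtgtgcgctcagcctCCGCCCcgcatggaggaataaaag
Krt8: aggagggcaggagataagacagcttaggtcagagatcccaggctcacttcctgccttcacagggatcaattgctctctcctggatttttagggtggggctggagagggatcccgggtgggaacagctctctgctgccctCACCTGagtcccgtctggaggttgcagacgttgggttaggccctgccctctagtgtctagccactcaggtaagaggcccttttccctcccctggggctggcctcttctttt
Krt18: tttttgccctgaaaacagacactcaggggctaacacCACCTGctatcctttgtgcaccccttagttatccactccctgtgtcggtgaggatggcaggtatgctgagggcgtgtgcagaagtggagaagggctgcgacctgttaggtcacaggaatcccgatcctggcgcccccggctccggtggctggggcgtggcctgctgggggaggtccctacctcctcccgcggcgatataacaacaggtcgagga
Epcam: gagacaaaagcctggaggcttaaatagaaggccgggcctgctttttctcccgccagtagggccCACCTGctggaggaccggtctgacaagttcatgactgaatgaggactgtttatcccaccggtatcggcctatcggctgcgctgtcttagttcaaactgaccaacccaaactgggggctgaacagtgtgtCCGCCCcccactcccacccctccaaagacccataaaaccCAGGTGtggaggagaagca
Cldn3: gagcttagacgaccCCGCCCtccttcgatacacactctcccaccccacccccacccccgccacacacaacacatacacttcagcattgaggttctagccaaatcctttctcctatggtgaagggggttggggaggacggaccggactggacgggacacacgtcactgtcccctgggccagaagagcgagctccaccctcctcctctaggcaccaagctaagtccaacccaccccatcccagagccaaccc
Cldn4: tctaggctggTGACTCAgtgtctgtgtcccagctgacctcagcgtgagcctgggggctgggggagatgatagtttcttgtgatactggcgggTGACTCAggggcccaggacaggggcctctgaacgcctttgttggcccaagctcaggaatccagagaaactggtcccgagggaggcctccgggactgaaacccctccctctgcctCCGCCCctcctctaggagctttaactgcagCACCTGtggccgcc

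These stretches lie at chr15:101412153-101412402 (plus strand) for Krt7, chr15:102004343-102004592 (minus strand) for Krt8, chr15:102027966-102028215 (plus strand) for Krt18, chr17:87635729-87635978 (plus strand) for Epcam, chr5:134985964-134986213 (plus strand) for Cldn3 and chr5:134946935-134947184 (minus strand) for Cldn4. CACCTG or its reverse complement CAGGTG was present in 5 of the 7 promoters, against 17.1% of the 27025 promoters in the table. Epcam held it at 187 and at 19 bases before the start, Krt7 at 44, Krt8 at 111, Krt18 at 214 and Cldn4 at 14. Cldn3 and Upk3b held none. GGGCGG or CCGCCC was found in Krt7 at 4 places and in Epcam, Cldn3 and Cldn4 at 1 place each, against 32.9% of all promoters. Cldn4 alone of the 7 held TGACTCA, at 240 and 158 bases before the start, against 4.43% of all promoters. TATAAA (13% of all promoters) and AACCGGTT (0.122%) were searched as well and matched in 0 of the 7. The GC content of the 7 stretches ran from 56.4% to 66%, and the median of all promoters was 52%. The matches are a description of the letters and do not show binding.

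The keratins were among the leading markers of the ascites cluster that the authors named tumor cells. In the authors' deposited table Krt7 had an average log fold change of 2.71 in that cluster against the other cells, which is 15-fold when the values are read as natural logs (6.54-fold if they were base 2). Krt18 stood at 2.62 (13.7-fold), Krt19 at 2.14 (8.46-fold) and Krt8 at 1.85 (6.38-fold) in the authors' deposited table. All 4 chains, both of type I and both of type II, were thus listed for the same cluster. Ranked by log fold change among its 572 markers, Krt7 was at rank 5, Krt18 at 6, Krt19 at 18 and Krt8 at 28.

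Of the adhesion genes, Epcam (1.69, 5.4-fold) and Cldn3 (1.64, 5.16-fold) were listed for the same cluster in the authors' deposited table, at ranks 40 and 47. Cdh1 and Cldn4 were listed for 0 of the 9 clusters. The lowest value in the table is 0.50, so a gene that is not listed may still be expressed or may differ by less than this value. Of the mesothelium-linked genes, Upk3b was high at 2.21 (9.08-fold, rank 17) and Msln low at 0.68 (1.98-fold, rank 343) in the authors' deposited table. The 8 listed genes had a median of 1.99, against 0.75 over all 572 markers of the cluster, and 7 of them were within its 57 highest markers.

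**Figure D1:**
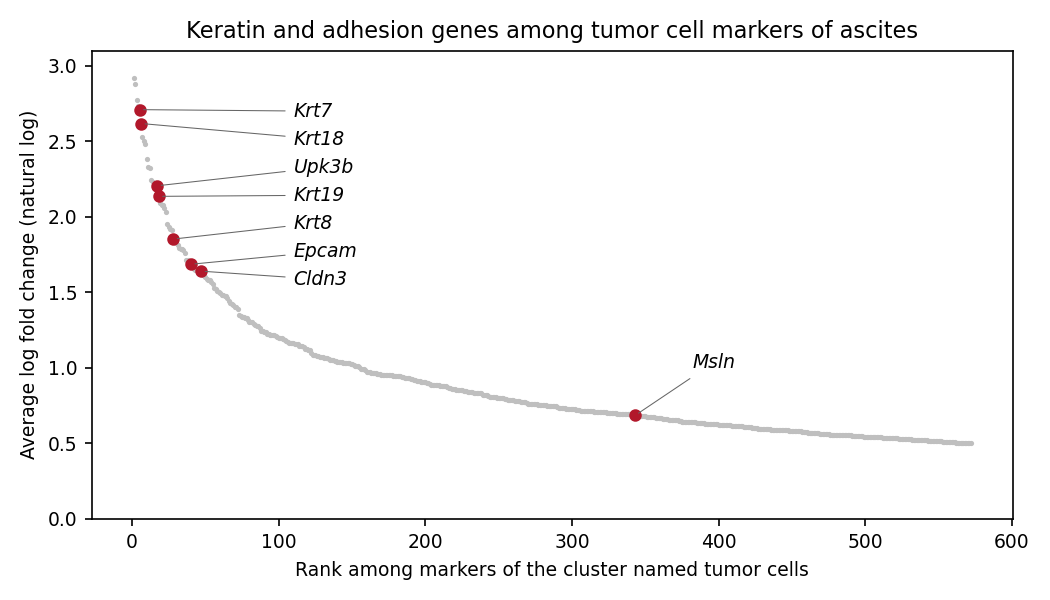
Average log fold change (natural log, y axis) of the 572 markers of the ascites cluster named tumor cells, ordered by rank (x axis), in the authors' deposited table. The 8 listed genes are in red: 7 lie at ranks 5 to 47, and Msln lies at rank 343 with 0.68.

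In the other 8 clusters 0 of the 10 genes were listed, the CAFs included, which share 114 markers with the tumor cells. Of RefSeq protein-coding genes 1.63% were listed for the CAFs, 1.02% for monocytes, 0.938% for T-cells, 0.897% for B-cells, 0.712% and 0.333% for the 2 macrophage clusters, 0.485% for dividing cells and 0.162% for erythrocytes. Listing in 1 cluster alone is common in this table: 436 of the 572 tumor cell markers (76.2%) were listed for no other cluster. The share of RefSeq protein-coding genes listed for the tumor cells was 2.51%, and of the genes listed for any cluster it was 35.8%. The 10 genes were chosen with these entries known, so their 8 of 10 is a description and not evidence about the cluster. The entries and the clusters come from the same cells, for which no test was made.

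Genes most like each gene over the 9 clusters were sought among tumor cell markers by the Euclidean distance of the log fold changes, with 0 for a cluster in which a gene is not listed. Krt7 lay nearest to Lgals7 (distance 0.026) and Krt18 to Igfbp5 (0.087), and each of these keratins was among the 3 nearest of the other (0.092). Krt19 and Upk3b were also among each other's 3 nearest (0.07). Nearest to Epcam was Mgarp (0.002), and nearest to Cldn3 was the entry for the tdTomato reporter (0.005), at 1.65 in the authors' deposited table. Krt8 lay nearest to Gstm1 (0.041) and Ezr (0.059), Upk3b to Tsc22d1 (0.024), Krt19 to Chchd10 (0.041) and Msln to 4930502E18Rik (0.002). These distances mostly compare 1 value, that of the tumor cells, since the genes are not listed elsewhere.

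Lists of other genes of epithelial filaments and junctions are given by their counts, which were not compared with those of the 10 genes. Of 12 further keratins, among them the stratified chains Krt5 and Krt14, 0 were listed for any cluster. Of 19 further tight junction genes 3 were listed for the tumor cells: F11r, which encodes the junctional adhesion molecule A (1.22), Cldn15 (1.16) and Cgn, which encodes cingulin (0.59), in the authors' deposited table. Of 21 adherens junction and desmosome genes 4 were listed: Nectin2 (1.26), Ctnna1, which encodes an alpha catenin (0.67), Dsg2, a desmosomal cadherin (0.54), and Ctnnb1 (0.52), in the authors' deposited table. Of 25 epithelial regulators and apical proteins 3 were listed: Ezr, which encodes ezrin (1.79), Spint2 (1.35) and Muc16 (0.67), in the authors' deposited table. The transcription factors Grhl2, Elf3, Ehf, Ovol1 and Klf5 and the splicing regulator Esrp1 of that list were not listed for any cluster.

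A few epithelial list genes were listed for other clusters. Cd24a was listed for erythrocytes (1.70), monocytes (1.58) and dividing cells (0.68) in the authors' deposited table. Lcn2 was listed for monocytes (2.29) and CAFs (0.69), and Pkp3 for T-cells (0.95), in the authors' deposited table. Monocytes is the authors' name for the cluster, and 8 of 8 neutrophil markers were listed for it. Nectin2 and Ctnnb1 were listed for CAFs as well, at 0.87 and 0.68, in the authors' deposited table. Cdh2, which encodes N-cadherin, was listed for CAFs (0.61) and not for the tumor cells in the authors' deposited table.

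Markers of another cell type stood beside the keratins in the same cluster. Mesothelial genes were listed for the tumor cells in 12 of 15 cases, led by Igfbp5 (2.53), Wt1 (1.92) and Cpe (1.76) in the authors' deposited table. The shorter mesothelial marker list, which holds Msln and Upk3b, had 9 of 10 listed for the tumor cells and 2 of 10 for the CAFs, and Calb2 was not listed. Its median log fold change in the tumor cells was 1.41, and that of the 6 listed of 12 epithelial markers, all of them described above, was 1.99. Of 21 mesenchymal genes 5 were listed for the tumor cells, led by Dcn (2.33), Sparc (2.08) and Acta2 (1.16), and 9 for the CAFs, in the authors' deposited table. The fibrillar collagens Col1a1, Col1a2 and Col3a1 were listed for CAFs only, among the 9 clusters. Of 12 fibroblast markers 2 were listed for the tumor cells, and of 8 endothelial, 8 B cell, 8 T cell, 10 macrophage, 8 neutrophil, 7 erythroid and 8 dendritic markers 0 were, and of 8 cycling markers 1. In this table the cluster named tumor cells was thus marked by keratins and Epcam together with mesothelial genes, and the part of mesothelial cells in the keratin values was not tested. The sources used here do not say how doublets were treated.

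**Figure D2:**
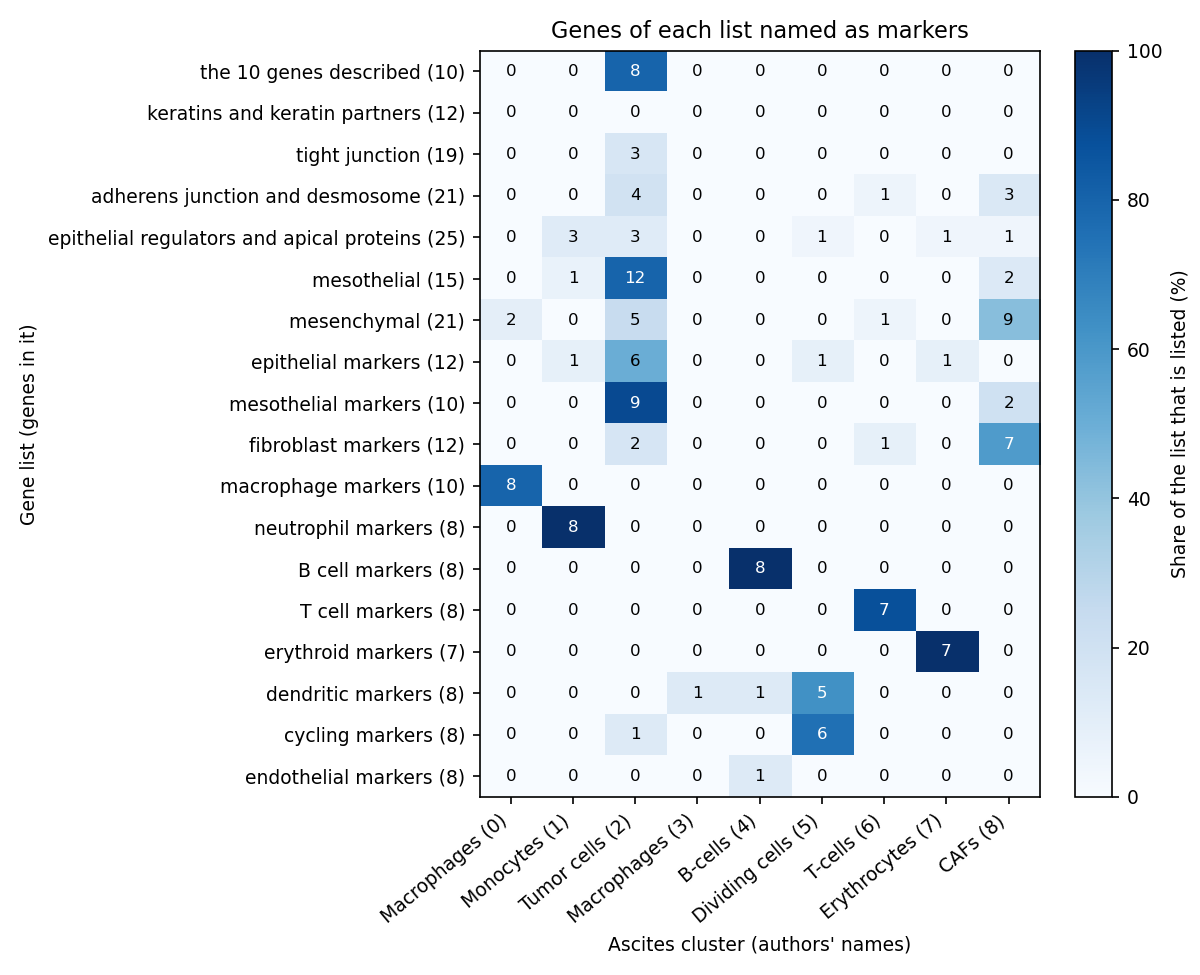
Number of genes of each list (rows, list size in brackets) named as markers of each ascites cluster (columns, the authors' names), with colour for the share of the list in percent. The described genes fill the tumor cell column alone (8 of 10), where mesothelial genes are also listed (12 of 15) and further keratins are not (0 of 12).

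The chromosome 15 keratins and the chromosome 5 genes lie in regions called as changed in the tumor cells of the ascites. The authors deposited 29 regions for these cells, with a state above 3 in 20 and under 3 in 9, and states above 3 are read here as gain, which the file headers do not state. By RefSeq position Krt7, Krt8 and Krt18 lie in the region of state 4 at chr15:94577951-103340086. Cldn3, Cldn4 and Upk3b lie in the region of state 4 at chr5:125441568-137116209. That makes 6 of 10 genes. Of RefSeq protein-coding genes 12.1% lie in a region of state above 3, and of the tumor cell markers 24.2% do. Genes in the same region are near each other on the chromosome, so the 6 are not separate readings beside these shares. Epcam, Cdh1 and Msln lie in no region, and 0 of 10 genes lie in a region of state under 3, which hold 8.33% of protein-coding genes. The regions and the marker values come from the same cells, so they are not independent readings.

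Krt19 differs between the deposited tables. The table of genes per region names it in a region of state 4 on chromosome 11, but that region ends at 99231017 and Krt19 starts 0.91 Mb beyond, at 100140810. The row of Krt19 gives the position 99209047 to 99231017, which in RefSeq belongs to the gene named in the row before, Smarce1. The same displacement runs through the whole table: of 1495 genes with a RefSeq position 73 overlap the position in their own row and 1467 overlap the position in the next row. The region's end is also the end of the position in the row of Krt19, so this boundary may carry the same displacement, and whether Krt19 lies in the region cannot be settled from these tables. By name Krt19 is in the region and Cldn4 is not, and by the deposited boundaries the reverse holds, with 6 of 10 genes either way. Reading the table by name was chosen after seeing the data.

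In the tumors the Epcam bin read above 0.2 in every sample. Epcam lies on chromosome 17 from 87635979 to 87651127 (GRCm38), in 1 bin of 15150 bp that covers the gene. Its log2 copy ratio was 0.84, 0.46, 0.50, 0.70 and 0.45 in Lkb1-deleted tumors 1 to 5 and 0.48, 0.50 and 0.57 in Lkb1-intact tumors 1 to 3. All 8 values were above 0.2, which held for 0.246% of the 21099 genes measured in all tumors and for 0.343% of those with 1 bin. They were also above 0.4, a mark chosen after these values were seen, which 0.0427% of all genes and 0.0791% of those with 1 bin passed in 8 of 8 tumors. The surroundings of Epcam, meaning the median of the 44 other bins up to 1 Mb away, read 0.05 to 0.46, and the Epcam bin lay above them in 8 of 8 tumors, by 0.23 to 0.53. A bin on one side of its surroundings in 8 of 8 tumors was found for 13.7% of genes and 12.6% of those with 1 bin.

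The 3 nearest bins before Epcam also read above 0.2 in 6 or more of the 8 tumors. The bins of Stpg4, centred at -237 and -218 kb from the Epcam start, read 0.26 to 0.81 and 0.48 to 0.95 over the 8 tumors, and the Calm2 bin between them and Epcam read 0.15 to 0.68. On the other side the Kcnk12 bins, centred 119 to 153 kb from the start, were above 0.2 in at most 2 tumors each. The sources used here do not give the reference of the ratio, so an offset of that reference and a gain in all 8 tumors cannot be told apart.

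Krt8 stood lower than its surroundings. Krt8 lies on chromosome 15 from 101996711 to 102004342, in 1 bin of 7784 bp, and read -0.28, -0.55, -0.21, -0.40 and -0.21 in Lkb1-deleted tumors 1 to 5 and -0.58, -0.06 and 0.06 in Lkb1-intact tumors 1 to 3. It was below -0.2 in 6 of 8 tumors, and 6 or more such tumors were found for 5.08% of all genes and 8.63% of those with 1 bin. Its 76 surrounding bins gave medians of 0.03 to 0.33, above the Krt8 bin in 8 of 8 tumors. A bin on one side of its surroundings in 8 of 8 tumors was found for 13.7% of genes and 12.6% of those with 1 bin. Over the 8 tumors the Krt8 neighbours Eif4b and Krt78 read -0.26 to 0.31 and -0.49 to 0.58. In Lkb1-deleted tumor 5 Eif4b (-0.26) and in Lkb1-deleted tumor 3 Krt78 (-0.49) were lower than Krt8. Eif4b (0.02) was also lower than Krt8 (0.06) in Lkb1-intact tumor 3, and in Lkb1-intact tumor 2 Krt78 and Krt8 both read -0.06.

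**Figure D3:**
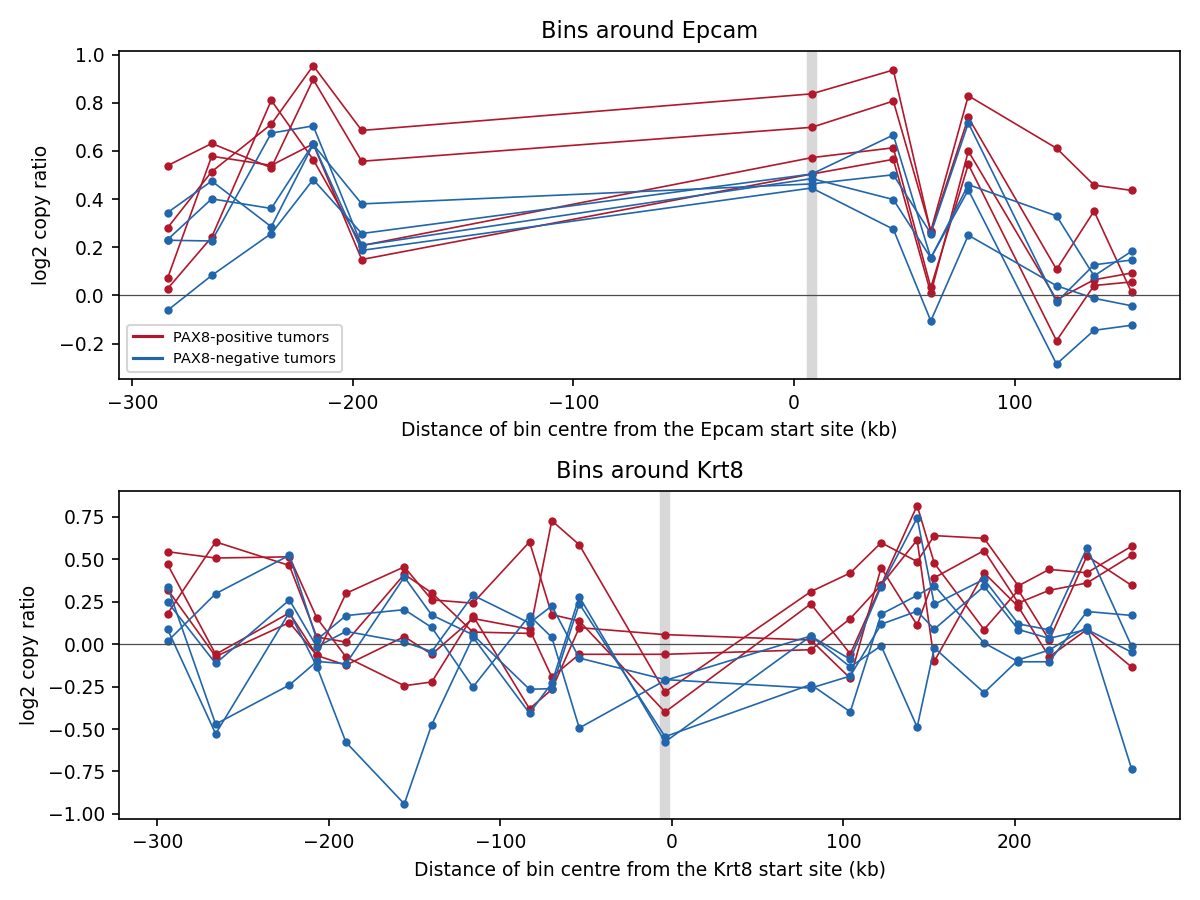
Log2 copy ratio (y axis) of bins of at least 3000 bp within 300 kb of the start sites of Epcam (top) and Krt8 (bottom), by distance in kb (x axis), with 1 line per tumor and the gene's own bin shaded. All 8 tumors lie above 0.4 at Epcam, and 6 of 8 lie below -0.2 at Krt8.

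Krt7, on the same chromosome as Krt8 (101412403 to 101427806), followed its surroundings. Its bin read 0.40, 0.14, 0.00, 0.15 and 0.20 in Lkb1-deleted tumors 1 to 5 and 0.20, 0.28 and 0.05 in Lkb1-intact tumors 1 to 3, against medians of 0.04 to 0.25 over 81 surrounding bins. Lkb1-deleted tumor 1, which shares its number with the ascites, was the highest in both. Krt18 (102028216 to 102032026), without a bin, was surrounded by 76 bins with a median of 0.33 in that tumor and 0.01 to 0.17 in the others. The values around Krt7, Krt8 and Krt18 come largely from the same bins and are not separate readings.

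Cdh1 was low in 1 tumor. It lies on chromosome 8 from 106603350 to 106670247 and is the only one of the 10 genes with more than 1 bin, namely 4. Their median read -0.70 in Lkb1-deleted tumor 1, where the single bins read -0.52, -0.44, -0.88 and -0.92 with a median of -0.49 over 81 surrounding bins. Its direct neighbours Cdh3, another cadherin gene, and Tango6 read -0.75 and -0.46 in this tumor. In the other 7 tumors the median ran from -0.05 to 0.26. Depth over the 4 bins was 0.61 to 0.85 in Lkb1-deleted tumor 1. In the ascites that carries this tumor's number, Cdh1 was not listed as a tumor cell marker and lies in no called region. A link between its copy ratio and its listing was not tested.

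Krt19 varied between tumors in its own bin and not in the same way around it. On chromosome 11 from 100140810 to 100145926, it read 0.24, -0.04, 0.15, -0.35 and -0.11 in Lkb1-deleted tumors 1 to 5 and 0.40, 0.67 and 0.29 in Lkb1-intact tumors 1 to 3. Its 102 surrounding bins gave medians of -0.43 to 0.06. Its direct neighbours, the keratin genes Krt15 and Krt9, read -1.56 to 0.05 and -1.40 to 0.05.

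The remaining genes lie in short single bins. Cldn3 (chromosome 5, 134986214 to 134987476) has a bin of 1258 bp with depth 0.27 to 1.46 and a weight lower than that of nearly all bins (percentile 0.1), and read -1.69 to 0.38. Cldn4 (134945123 to 134946934) has a bin of 1815 bp with depth 0.33 to 1.67 and read -1.67 to 0.64. The 2 genes are direct neighbours, and the surroundings of each had medians of -0.24 to 0.24, so the extreme values of these bins were not shared by their surroundings. Upk3b (136038496 to 136044993) read -0.33 to 0.17, with -0.26 to 0.12 around it. Msln (chromosome 17, 25748613 to 25754378) read 0.46, 0.46, 0.02, 0.48 and 0.47 in Lkb1-deleted tumors 1 to 5 and 0.19, -0.75 and 0.22 in Lkb1-intact tumors 1 to 3. In Lkb1-intact tumor 2 the bins around Msln were low as well (-0.33), and in Lkb1-deleted tumors 1 and 4 they were high (0.29 and 0.41). In Lkb1-deleted tumors 2 and 5 they read -0.05 and 0.05, so the high Msln values there were not shared by the surroundings. In Lkb1-intact tumors 1 and 3 they read 0.01 and 0.08.

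**Figure D4:**
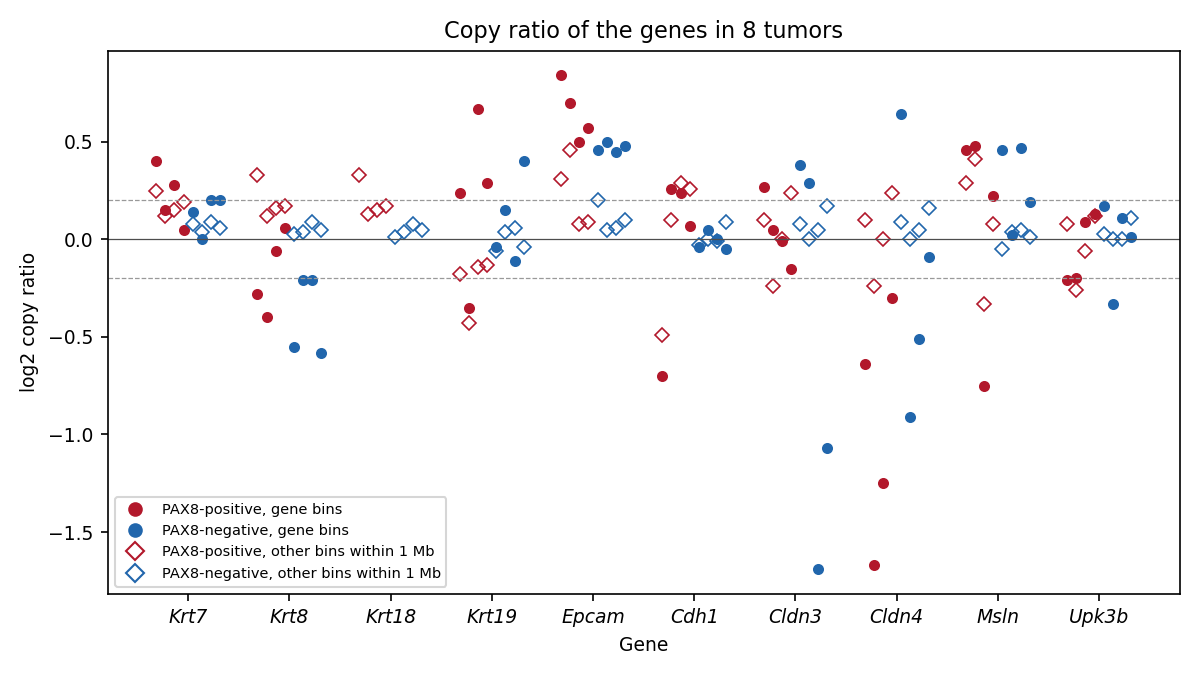
Log2 copy ratio (y axis) of each gene (x axis) in the 8 tumors, PAX8-positive in red and PAX8-negative in blue, with filled circles for the gene's bins and open diamonds for the other bins within 1 Mb, and dashed lines at 0.2 and -0.2. Epcam circles all lie above 0.4, and the circles of Cldn3 and Cldn4 spread from -1.69 to 0.64 while their diamonds lie between -0.24 and 0.24.

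Over the 9 genes with bins and the 8 tumors, 25 of 72 values were above 0.2 and 19 below -0.2. Lkb1-deleted tumor 1 had 5 genes above (Krt7, Krt19, Epcam, Cldn3 and Msln) and 4 below (Krt8, Cdh1, Cldn4 and Upk3b), where 21.4% and 34.2% of all genes were. Lkb1-deleted tumor 2 had 4 above and 1 below, against 13.9% and 21.3% of all genes. Lkb1-deleted tumor 3 had 2 above and 3 below (12.4% and 12.4% of all genes), tumor 4 of that group 3 and 3 (26.5% and 31.9%) and tumor 5 also 2 and 3 (12% and 16.5%). Lkb1-intact tumor 1 had 2 above and 2 below (18.4% and 23.2%), tumor 2 of that group 4 and 2 (22.8% and 34.3%) and tumor 3 had 3 and 1 (25.4% and 23.9%). Epcam adds 1 to each count above 0.2.

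Set beside the ascites, the tumor with the same number gave a mixed picture. Around Krt7, Krt8 and Krt18, in a region of state 4, the bins within 1 Mb of Lkb1-deleted tumor 1 read 0.25, 0.33 and 0.33. Around Cldn3, Cldn4 and Upk3b, in the other region of state 4, they read 0.10, 0.10 and 0.08. Around Krt19 they read -0.18. Epcam, Msln and Cdh1, in no region, read 0.31, 0.29 and -0.49 around the gene in this tumor. Only the shared number in the labels ties the ascites to this tumor.

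The next comparison asked whether the copy ratio of these genes differed by PAX8 label. No gene passed: limma over 21242 genes, with the Lkb1 label in the model, gave Benjamini-Hochberg adjusted p-values of 0.698 or more for the 9 genes, and 0 of 9 had an unadjusted p under 0.05 in limma. Over all genes 0.00471% passed the adjusted and 7.18% the unadjusted threshold. The exact two-sided permutation test called 0 of 9 after adjustment and gave 1 unadjusted p under 0.05, that of Epcam, against 3.82% of all genes. Epcam read 0.65 ± 0.15 (SD, n = 4) with PAX8 and 0.47 ± 0.03 (SD, n = 4) without, and the exact permutation p was 0.0286, the smallest possible (adjusted 0.737). The groups did not overlap, but the lowest positive and the highest negative tumor both read 0.504 to 3 decimals. The limma difference was 0.21 (SE 0.11, 95% interval -0.05 to 0.47). For Cldn4 the fitted difference was -0.82 (SE 0.39, 95% interval -1.72 to 0.08). With 1 tumor left out it ran from -1.07 (without Lkb1-deleted tumor 1) to -0.52 (without Lkb1-deleted tumor 4), and it was -0.54 without Lkb1-deleted tumor 2. It was -0.25 with the ending of the tumor number as a block and -0.09 with all bins within 1 Mb.

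In the bins around the genes the PAX8 groups were apart for the keratins. Around Krt8 the medians were 0.12 to 0.33 in PAX8-positive and 0.03 to 0.09 in PAX8-negative tumors, and around Krt7 0.12 to 0.25 and 0.04 to 0.09. Around Krt19 they were -0.43 to -0.13 in PAX8-positive and -0.06 to 0.06 in PAX8-negative tumors. The groups did not overlap around Krt7, Krt8, Krt18 and Krt19, of which the first 3 share bins, where 3.45% of all genes had such a gap. The exact permutation p was 0.0286 for each, and adjusted over all genes it was 0.646 for Krt7, Krt8 and Krt19. In limma, with each gene's own bins included, the difference was 0.15 (SE 0.10, adjusted p = 0.613) for Krt8 and -0.24 (SE 0.10, adjusted p = 0.613) for Krt19. These calls did not pass.

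The same comparison by Lkb1 label also gave no gene past the threshold. Limma, with the PAX8 label in the model, gave adjusted p-values of 0.671 or more for the 9 genes, and 1 of 9 had an unadjusted p under 0.05, where 0.033% and 6.94% of all genes passed. The exact permutation test called 0 of 9 after adjustment and gave 1 unadjusted p under 0.05, against 5.17% of all genes. That gene was Krt19 in both tests. Its mean was -0.02 ± 0.23 (SD, n = 5) with Lkb1 deleted and 0.45 ± 0.20 (SD, n = 3) with Lkb1 intact (exact permutation p = 0.0357, adjusted 0.691). Its groups did not overlap, with 0.24 as the highest deleted and 0.29 as the lowest intact value, as for 5.46% of all genes. The limma difference of -0.48 (SE 0.17, adjusted p = 0.671) moved to -0.08 when all bins within 1 Mb were used. With 1 tumor left out it ran from -0.60 (without Lkb1-deleted tumor 1) to -0.32 (without Lkb1-deleted tumor 4). It was -0.27 with the ending of the tumor number as a block. Msln read 0.38 ± 0.20 (SD, n = 5) and -0.11 ± 0.55 (SD, n = 3), (exact permutation p = 0.0536, adjusted 0.729). Its limma difference of 0.48 was 0.19 without Lkb1-intact tumor 2, 0.74 without Lkb1-intact tumor 1, 0.27 with all bins within 1 Mb and 0.20 with the block. In the bins around the genes 0 of 10 had Lkb1 groups that did not overlap, against 4.62% of all genes.

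**Figure D5:**
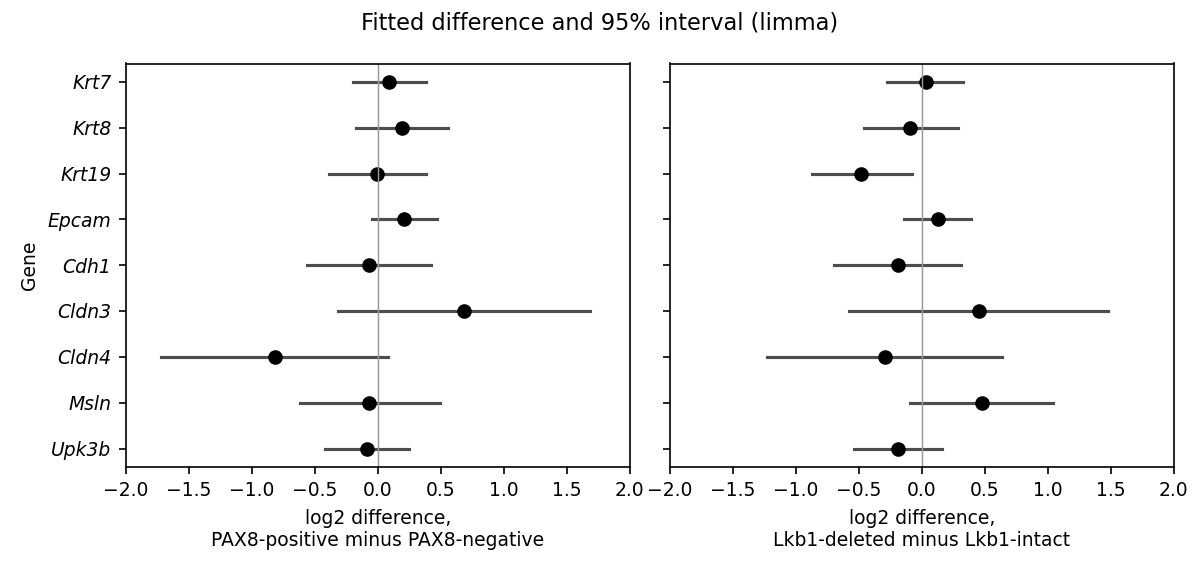
Fitted log2 difference (points) with its 95% interval (lines) for each gene with a bin, by PAX8 label on the left and by Lkb1 label on the right, from limma over all genes. All intervals by PAX8 include 0, and by Lkb1 that of Krt19 (-0.87 to -0.08) does not, before adjustment over all genes.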

How the data were processed

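Low-coverage sequence of 8 tumors and 1 single-cell library of ascites were measured. The library of normal tissue was left out. Build and tools, per the submitters' processing notes, were GRCm38 (mm10), Picard, BWA, Seurat 2.3.4 and Cell Ranger. The sources used here name no tool for the copy ratios or the ascites regions. For each of 59640 bins the authors deposited a depth (coverage signal), a weight score and a log2 copy ratio. The authors deposited an average log fold change per ascites cluster, read as a natural log (the scale of that Seurat version), with p-values over cells, which served only as a filter in an alternative. The state of ascites regions is a score, per the file headers.

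Bins of a gene were summarised by their median. Bins of depth 0 (7 to 50 per tumor) were treated as missing. The surroundings are the median of the other bins within 1 Mb, and 0.2 marks a changed value. Labels were compared with limma 3.58.1 in R 4.3.3 over all genes with both labels in the model, Benjamini-Hochberg adjustment at 0.05, and by an exact permutation test, two-sided on the difference in means, with 70 splits by PAX8 and 56 by Lkb1 and smallest p-values of 0.0286 and 0.0179. The fit was tested on simulated data. Gene positions came from RefSeq GRCm38.p6. Lists hold markers and epithelial, mesothelial and mesenchymal genes. Of each list the 3 genes with the highest log fold change in the tumor cells are named, with epithelial list genes of clusters other than tumor cells and CAFs, the 3 genes most like each member, and, in the copy ratio tables, direct neighbours. Some genes that this rule names are not reported here. The Stpg4 and Kcnk12 bins, Cdh2, Ctnnb1 in the tumor cells and list genes named as not listed were added after their values were seen. The genes and lists were chosen with earlier results of these data known. Alternatives were other thresholds, means, recentring, all bins, 1 Mb surroundings, genes of 2 or more bins, each tumor left out, single-label models and the ending of the tumor number as a block. Tables and figures were made in Python 3.11.15 with matplotlib 3.10.9, pandas 2.3.3 and numpy 2.4.6.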

Additional observations from a re-analysis of the deposited data

Results flagged for a closer look

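In 5 of 57 groups checked 1 tumor lay far from the rest of its group, where chance alone would give about 1 in 20. The groups share tumors, and some share bins, so the checks are not independent and no excess over chance can be read from them. Around Cdh1 (other bins within 1 Mb), Lkb1-deleted tumor 1 read -0.49, and the nearest Lkb1-deleted tumor -0.03. The Cldn3 bin read -1.69 in Lkb1-deleted tumor 5, and the nearest Lkb1-deleted tumor read 0.05. At the Msln bin, Lkb1-deleted tumor 3 read 0.02 while the nearest of that group read 0.46. Around Krt19 Lkb1-deleted tumor 4 read -0.43 (nearest PAX8-positive tumor -0.18). Around Upk3b it read -0.26, and no other Lkb1-deleted tumor was below 0.00.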

How the results depend on the processing

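By PAX8 and by Lkb1 label 0 of 9 genes passed limma's adjusted threshold, and 0 did under any alternative that was run, in which the smallest adjusted p was 0.475 by PAX8 and 0.42 by Lkb1. With 1 tumor left out at a time the count stayed at 0 for both labels. The sign of a difference turned in 14 of 136 values by PAX8 and in 7 of 136 by Lkb1. Over all genes limma called 1 gene by PAX8 and 7 by Lkb1, and between 0 and 2 by PAX8 and between 0 and 10 by Lkb1 under the alternatives. By PAX8 the count was 0 with this label alone, all bins kept, bins within 1 Mb, genes of 2 or more bins, the number ending as a block or the exact permutation test. By Lkb1 it was 2 with all bins kept, 0 with bins within 1 Mb, the block or the permutation test, and 0 to 6 with 1 tumor left out. The cause was not tested. Of the 72 values of the 9 genes, 25 were above 0.2 and 19 below -0.2. With all bins within 1 Mb these fell to 11 and 6, and the cause was not tested. Under the other settings both counts moved by less than 1.5 times. All 8 listed genes kept their place with an adjusted p under 0.001 over cells, and 7 had a log fold change of at least 1. The planned filter on the share of cells could not be run, since the table holds no shares. No paired analysis was possible because the replicate numbers only name the tumors, in accession order. The ending of the tumor number recurs across groups, and as a block, with its meaning not given, it left 0 of 9 genes called by either label. Depth limits most the bins of Cldn3 (1258 bp) and Cldn4 (1815 bp).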
